A study of Mus musculus with 7 samples.

Results

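Il7r-positive memory T cells lacking the transcription factor Thpok were compared with Il7r-positive cells that kept it, within virus-specific spleen cells taken 30 days after infection. The members were chosen by their measured Il7r reads: a cell was counted as Il7r-positive when it held at least 1 UMI (unique molecular identifier, a tag that marks 1 captured RNA molecule) of Il7r. By this rule 545 of the 1461 day 30 GP66+ cells were Il7r-positive, 175 Thpok-deleted and 370 Thpok-sufficient, out of 16427 cells in the 7 libraries of the series. The Thpok-deleted cells carried the genotype Ox40-Cre+ Thpokfl/fl RosaYFP+ and the Thpok-sufficient cells Ox40-Cre+ Thpokwt/wt RosaYFP+, both on the C57bl/6 background. All mice had received LCMV Arm, the Armstrong strain of the lymphocytic choriomeningitis virus, which healthy mice clear, and all cells were sorted as CD44high, RosaYFP+ and binding the GP66:I-Ab tetramer, which displays a viral peptide on a class II molecule. Cre under control of Ox40 acts in activated T cells, so the deletion follows T cell activation, and both genotypes carry the Cre and the yellow reporter. The labels give no CD4 gate, age or number of animals for these libraries. At day 7 the same genotypes gave 1 GP66+ library each, and wild type mice without these alleles a further one.

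Il7r encodes the alpha chain of the receptor for interleukin 7, which pairs with the common gamma chain and signals through Jak1, Jak3 and Stat5 to keep resting and memory T cells alive. Thpok, the product of Zbtb7b, is the zinc finger factor that holds T cells in the CD4 helper lineage and opposes Runx3 and the cytotoxic programme of CD8 cells. Cytotoxic cells kill with granzymes delivered through perforin, make the chemokines Ccl3, Ccl4, Ccl5 and Xcl1, and often carry killer lectin-like receptors shared with natural killer cells.

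Each genotype was measured in 1 library at day 30, so the differences at that day have no replicate check. Ranges beside ratios and levels of the day 30 pair are exact 95% intervals that cover counting error only. The gated cells held 623089 UMIs in Thpok-deleted and 804032 in Thpok-sufficient cells, with medians of 2955 and 2170.5 UMIs per cell. No gated barcode was shared between the 2 libraries. Both libraries held UMIs of Y-linked genes and none of Xist. Of the 7 T cell marker genes listed, 6 are in the files, and all 6 were present in both gated sums. Cd3d, a chain of the T cell receptor complex, had 640.4 CPM (the usual per-million scale, here of the gated sum) in Thpok-deleted and 634 CPM in Thpok-sufficient cells.

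The gate took a smaller share of the Thpok-deleted library. Of its 736 cells, 175 were Il7r-positive (23.8%, 20.7 to 27.0), against 370 of 725 Thpok-sufficient cells (51.0%, 47.3 to 54.7). With every cell thinned to 1000 UMIs the shares were 12.4% (91 of 732 cells) and 34.6% (247 of 714 cells). Il7r had 483 CPM in the gated Thpok-deleted and 836 CPM in the gated Thpok-sufficient cells, values that the gate itself sets. Of the Thpok-deleted members 112 held 1 Il7r UMI and 63 held 2 or more, and of the Thpok-sufficient members 193 and 177. Droplets with at most 50 UMIs, which hold RNA from outside cells, had 145 CPM of Il7r in the Thpok-deleted and 353 CPM in the Thpok-sufficient library. All cells of each library together had 141 CPM and 433 CPM of Il7r and thus levels close to those of the droplets. Zbtb7b itself had 1 UMI in the gated Thpok-deleted and 17 UMIs in the gated Thpok-sufficient cells. Scaled to the gated totals this was 1.60 CPM and 21.1 CPM (13.2-fold lower, 2.06 to 551), in the direction of the labels. The labels do not say which exons were floxed.

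Among 3001 genes with at least 50 UMIs over both gated sums, 175 were at least 2-fold higher in Thpok-deleted cells (5.83%) and 38 at least 2-fold lower (1.27%). The median log2 ratio, Thpok-deleted over Thpok-sufficient, was 0.165 over these genes. Scaling by TMM factors, a normalization that trims extreme genes, lowered every log2 ratio by 0.23, and the split became 87 higher and 89 lower. DESeq2 size factors lowered it by 0.27, with 80 higher and 102 lower, so the surplus of higher genes is seen with scaling to the gated totals alone. Ccl5 alone held 1.51% of the Thpok-deleted and 0.188% of the Thpok-sufficient UMIs, and ribosomal protein genes 30.0% and 35.3%. The counts also moved with the gate: with 2 or more Il7r UMIs required, 53 genes were higher and 20 lower.

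Granzymes and T cell chemokines made up 6 of the 12 genes named for the largest ratios, beside 3 hemoglobin genes, Cd160, Cd83 and Klrc2. Of the 24 genes listed for the CD8 lineage and cytotoxicity, 16 had 50 UMIs over both sums, and 14 of these were 2-fold higher and none lower; with TMM factors 13 were. The median log2 ratio of the 16 was 2.62, beside 0.165 for all 3001 genes. Of the 16, however, 11 had under 50 UMIs in the Thpok-sufficient sum and reached the minimum through the Thpok-deleted cells, where they were high, so the minimum itself favoured higher genes and the count and median are a description only. Of the 5 members with 50 UMIs in the Thpok-sufficient sum alone, 3 were 2-fold higher and none lower. The 8 members under the minimum all had more CPM in Thpok-deleted cells, on few UMIs.

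Gzma, a granule serine protease with trypsin-like activity (chr13:113093825-113100981 of GRCm38, minus strand), had 134 UMIs in Thpok-deleted and 0 in Thpok-sufficient cells. With 3 UMIs in place of 0 in the Thpok-sufficient sum the ratio is 57.6, and the counting interval runs from 46.2 upward. Gzmm, another granzyme (chr10:79689020-79695261, plus strand), had 52 and 0 UMIs, a ratio of 22.4 in the same way, with an interval from 17.6 upward. Both genes were thus read in Thpok-deleted members alone. Gzmb had 112 UMIs in Thpok-deleted and 5 in Thpok-sufficient cells (28.9-fold, 12 to 90.8). Gzmb encodes granzyme B, which triggers death of target cells (chr14:56258838-56262260, minus strand). Gzmk had 33 UMIs against 1 (42.6-fold, 7.13 to 1732), below the minimum of 50. Prf1, the pore-forming perforin, was scarce, with 6 UMIs in Thpok-deleted and 2 in Thpok-sufficient cells, and its ratio of 3.87 had an interval of 0.692 to 39.2. Nkg7, a granule membrane protein, had 1408 CPM in Thpok-deleted and 313 CPM in Thpok-sufficient cells (4.49-fold, 3.90 to 5.19). The protease cathepsin W, encoded by Ctsw, had 183 and 39.8 CPM (4.60-fold, 3.08 to 7.03), and the death ligand Fasl 152 and 67.2 CPM (2.27-fold, 1.61 to 3.23).

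The chemokines stood as high. Ccl5 (chr11:83525778-83530518, minus strand), a chemoattractant of T cells and monocytes, had 9393 UMIs in Thpok-deleted and 1515 in Thpok-sufficient cells. This is 15075 CPM against 1884 CPM (8.0-fold, 7.58 to 8.45). Its neighbour Ccl4 (chr11:83662584-83664683, plus strand) had 854 UMIs in Thpok-deleted and 7 in Thpok-sufficient cells (157-fold, 76.1 to 393). Ccl3, an inflammatory chemokine related to Ccl4, had 117 against 3 UMIs (50.3-fold, 16.8 to 248), and Xcl1, which attracts cross-presenting dendritic cells, 60 against 1 (77.4-fold, 13.4 to 3108). A few cells carried much of some of these sums. The 5 highest Thpok-deleted cells held 80.3% of the Ccl3, 59.7% of the Gzma, 55% of the Xcl1 and 52.8% of the Ccl4 UMIs, against 9.79% for Ccl5 and 16.3% for Nkg7. Over the 175 genes 2-fold higher the median of this share was 28.1%, and 19 of them were above 50%; over all 3001 genes it was 24.4%.

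RNA outside cells carried the same genes. Droplets with at most 50 UMIs in the Thpok-deleted library had 963 CPM of Gzma, 425 of Gzmb, 2055 of Ccl4 and 14470.4 of Ccl5, against 215, 179.8, 1371 and 15075 CPM in the gated Thpok-deleted cells. The part of this RNA in the ratios was not tested. Gzmm went the other way, with 20.1 CPM in those droplets and 83.5 CPM in the gated cells.

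**Figure D1:**
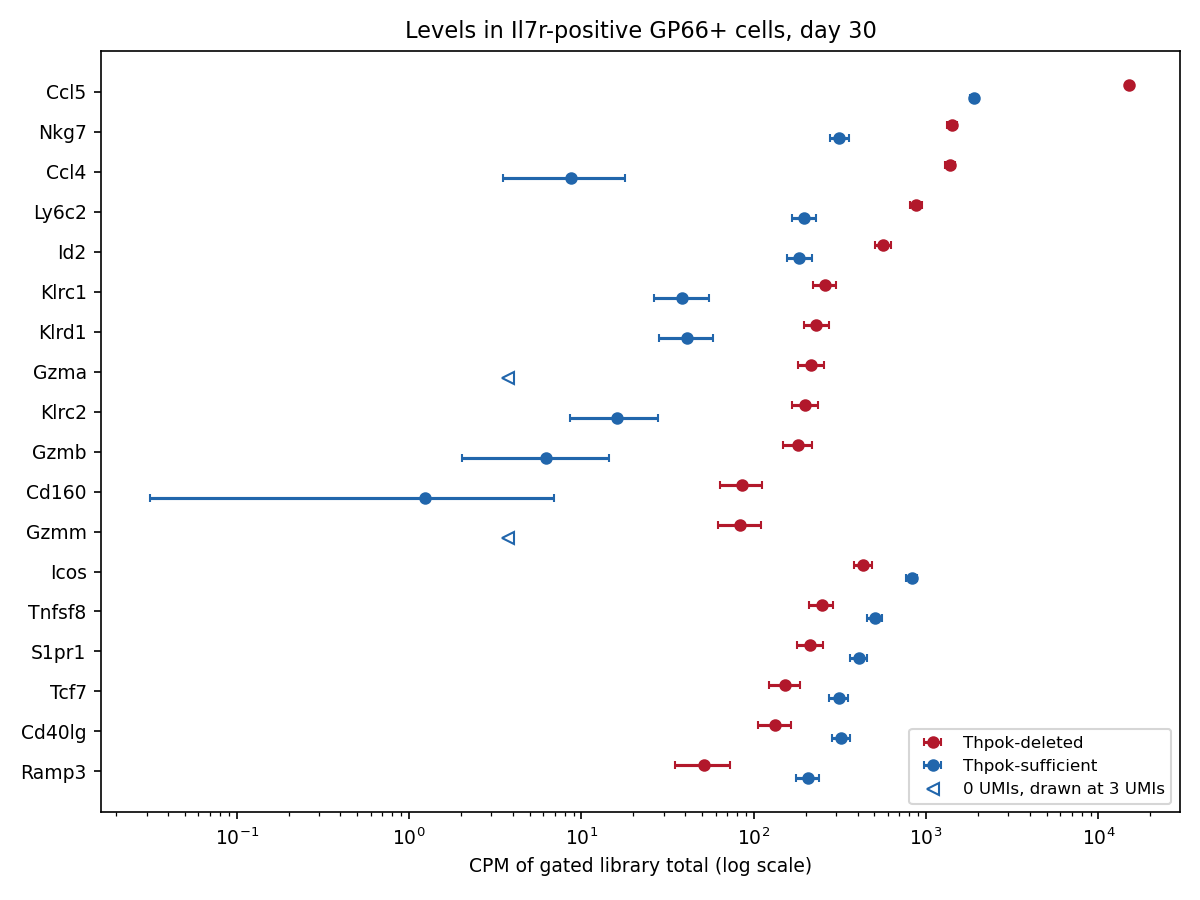
Level of 18 genes in Il7r-positive day 30 cells, in CPM of the gated library total on a log scale, for the Thpok-deleted (red, upper) and the Thpok-sufficient library (blue, lower), each 1 library. Bars are exact 95% Poisson intervals and open triangles mark 0 UMIs, drawn at 3 UMIs; the upper 12 genes were higher and the lower 6, from Icos to Ramp3, lower in Thpok-deleted cells.

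Killer lectin-like receptors, which natural killer and activated CD8 cells use to sense stress and class I molecules, were higher for 4 of the 10 listed genes. These 4 were the ones with 50 UMIs, all reached that minimum through the Thpok-deleted sum, and their median log2 ratio of 2.62 describes them and not the list. Of the other 6 genes 2 had more and 2 had less CPM in Thpok-deleted cells, and 2 were at 0 in both. Klrc1 had 258 CPM in Thpok-deleted and 38.6 CPM in Thpok-sufficient cells (6.70-fold, 4.54 to 10.2), and its neighbour Klrc2 199 and 16.2 CPM (12.3-fold, 6.94 to 23.8). These near-identical genes can share reads, so the split between them is uncertain. Klrd1 (chr6:129591782-129598775, plus strand), whose product pairs with those of Klrc1 and Klrc2, had 231 and 41.0 CPM (5.63-fold, 3.84 to 8.49). Klrc1 and Klrd1 are also members of the cytotoxic list, so the counts of the lists overlap. Klrk1, the activating receptor NKG2D, had 186 and 43.5 CPM (4.28-fold, 2.91 to 6.43). With each cell thinned to 1000 UMIs, a UMI of Klrc1 was found in 26.3% of Thpok-deleted (19.9 to 33.5) and 3.78% of Thpok-sufficient members (2.08 to 6.27), and unthinned in 46.3% of Thpok-deleted and 7.03% of Thpok-sufficient members. Droplets with at most 50 UMIs in the Thpok-deleted library had 313 CPM of Klrc1, 213 of Klrc2, 337 of Klrd1 and 257 of Klrk1, above the levels in the gated cells, and the part of this RNA in the ratios was not tested. The natural killer marker Ncr1 was at 0 in both gated sums, and the 6 NK cell markers together had 9 and 7 UMIs.

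Genes of the Th1 programme, the interferon gamma branch of helper cells, were in part higher. This list shares members, such as Ccl5, with the cytotoxic list. Of 20 listed, 14 had 50 UMIs, and 8 of these were 2-fold higher and none lower, with a median log2 ratio of 1.19; with TMM factors 7 were. Of the 10 members with 50 UMIs in the Thpok-sufficient sum alone, 5 were 2-fold higher. Of the 6 members under the minimum 5 had more CPM in Thpok-deleted cells and 1 had less. Ly6c2 had 875 CPM in Thpok-deleted and 197 CPM in Thpok-sufficient cells (4.45-fold, 3.72 to 5.35), with Ly6c1 as a near copy. Cxcr6, a chemokine receptor of tissue-homing T cells, had 238 and 59.7 CPM (3.98-fold, 2.86 to 5.63), and the cytokine gene Ifng 250.4 and 97.0 CPM (2.58-fold, 1.95 to 3.43). Cxcr3, a receptor that guides Th1 cells to inflamed tissue, had 91.5 and 89.5 CPM, a ratio of 1.02 (0.709 to 1.47).

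Several transcription factors differed. Of the 18 lineage and repressor factors, 14 had 50 UMIs and 6 were 2-fold higher, with a median log2 ratio of 0.70; with TMM factors 4 were. Of the 6 members with 50 UMIs in the Thpok-sufficient sum alone, 1 was 2-fold higher. Tbx21, the Th1 factor T-bet, had 94.7 CPM in Thpok-deleted and 33.6 CPM in Thpok-sufficient cells (2.82-fold, 1.76 to 4.63). Zeb2, which acts with T-bet in terminal effector CD8 cells, had 64.2 and 12.4 CPM (5.16-fold, 2.54 to 11.6), and Id2, an inhibitor of E proteins, 560.1 and 184 CPM (3.04-fold, 2.50 to 3.71). Eomes, a T-box factor of cytotoxic cells, had 29 UMIs against 0, a ratio of 12.5 with 3 UMIs in place of 0. Runx3, which Thpok opposes in thymic lineage choice, had 151 and 102 CPM and stayed under 2-fold (1.48-fold, 1.09 to 2.01). Of 10 inhibitory receptors 3 had 50 UMIs, of which Pdcd1 and Cd160 reached that minimum through the Thpok-deleted sum; these 3 were 2-fold higher. Of the other 7, 6 had more and 1 had less CPM in Thpok-deleted cells, on few UMIs. Pdcd1, the receptor PD-1, had 122 and 32.3 CPM (3.77-fold, 2.39 to 6.14), Ctla4 294 and 111 CPM (2.65-fold, 2.05 to 3.46), and Cd160 53 against 1 UMI (68.4-fold, 11.8 to 2752).

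Genes of the helper lineage were lower in part. Of 10 listed, 9 had 50 UMIs, and the other is Zbtb7b, the deleted gene. Of the 9, 2 were 2-fold lower and 1 was 2-fold higher, with a median log2 ratio of -0.20. Cd40lg (chrX:57212143-57224042, plus strand), the ligand through which helper cells license B cells and dendritic cells, had 133 CPM in Thpok-deleted and 321 CPM in Thpok-sufficient cells (2.41-fold lower, 1.87 to 3.12). The TNF family ligand Tnfsf8 had 247 and 504 CPM (2.04-fold lower, 1.69 to 2.47). The costimulatory receptor Icos (chr1:60977927-61000320, plus strand) had 432 and 825 CPM, just short of 2-fold (1.91-fold lower, 1.66 to 2.21), and passed it with TMM factors, which made 3 members 2-fold lower. Cd4 had 111 and 173 CPM (1.56-fold lower, 1.16 to 2.11). Gata3, a factor of CD4 and Th2 cells, was the member that was higher, with 93.1 and 42.3 CPM (2.20-fold, 1.42 to 3.47); with TMM factors it was under 2-fold.

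Most memory and homing genes with enough UMIs stayed within 2-fold. Of 16 listed, 11 had 50 UMIs, 10 of these were within 2-fold and 1 was lower, with a median log2 ratio of -0.24; with TMM factors 2 were 2-fold lower. Tcf7 (chr11:52252371-52283014, minus strand), which encodes TCF-1, a factor of self-renewing memory T cells, was that gene. It had 151 CPM in Thpok-deleted and 312 CPM in Thpok-sufficient cells (2.07-fold lower, 1.63 to 2.65). S1pr1, the receptor that lets T cells leave lymphoid organs, had 212 and 407 CPM (1.92-fold lower, 1.56 to 2.37) and passed 2-fold with TMM factors. Ccr7, which guides T cells into lymph nodes, had 177 and 144 CPM, a ratio of 1.22 (0.934 to 1.60). Cd27 and Foxo1 had ratios of 1.07 (0.883 to 1.30) and 1.22 (0.823 to 1.81). Of the 19 genes of IL-7 receptor signalling, Il7r set the gate and was left out. Of the others 13 had 50 UMIs and none was 2-fold apart, with a median log2 ratio of -0.26. With TMM factors 2 were 2-fold lower. The survival factor Bcl2, a target of that pathway, had 167 and 200.2 CPM, a ratio of 0.834 (0.645 to 1.07). The kinase Pim1 had 607 and 1199 CPM (1.98-fold lower, 1.75 to 2.23), and the common gamma chain Il2rg 324 and 460.2 CPM (1.42-fold lower, 1.19 to 1.69).

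Outside these lists, the genes furthest below were led by Maff, a small bZIP factor, with 14 UMIs in Thpok-deleted and 77 in Thpok-sufficient cells (4.26-fold lower, 2.39 to 8.16). Ramp3, which modifies the specificity of peptide hormone receptors, had 32 and 165 UMIs (4.0-fold lower, 2.72 to 6.03). Insig1, a brake on cholesterol synthesis, had 17 and 72 UMIs (3.28-fold lower, 1.91 to 5.94), and Zfp36, which destabilizes cytokine mRNAs, 32 and 120 (2.91-fold lower, 1.95 to 4.44). Zfp36 is also 1 of the dissociation stress genes counted below. Dusp10, a phosphatase of MAP kinases, had 72 and 268 UMIs (2.88-fold lower, 2.22 to 3.80). Tnfsf11, the ligand RANKL, had 16 and 54 (2.62-fold lower, 1.47 to 4.90). The remaining 6 of the 12 named by size, Pkp4, Smco4, Trib2, Rassf2, Ski and Map3k14, were between 2.51- and 3.10-fold lower. None of the 38 lower genes drew over 50% of its Thpok-sufficient UMIs from 5 cells.

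Further lists held genes in both directions. Of the 11 dissociation stress genes with 50 UMIs, 1 was 2-fold higher and 2 lower, with summed levels of 7740.5 CPM in Thpok-deleted and 7916 CPM in Thpok-sufficient cells. Of 8 genes of T cell receptor signalling and early response, 2 were 2-fold higher and 1 lower, and of 8 Tfh (follicular helper) genes 1 was higher and 1 lower; with TMM factors these were 1 higher and 3 lower, and 1 higher and 2 lower. Tfh markers under 50 UMIs included Cxcr5, the receptor that guides cells into follicles, with 6 UMIs in Thpok-deleted and 34 in Thpok-sufficient cells (4.39-fold lower, 1.82 to 12.8).

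**Figure D2:**
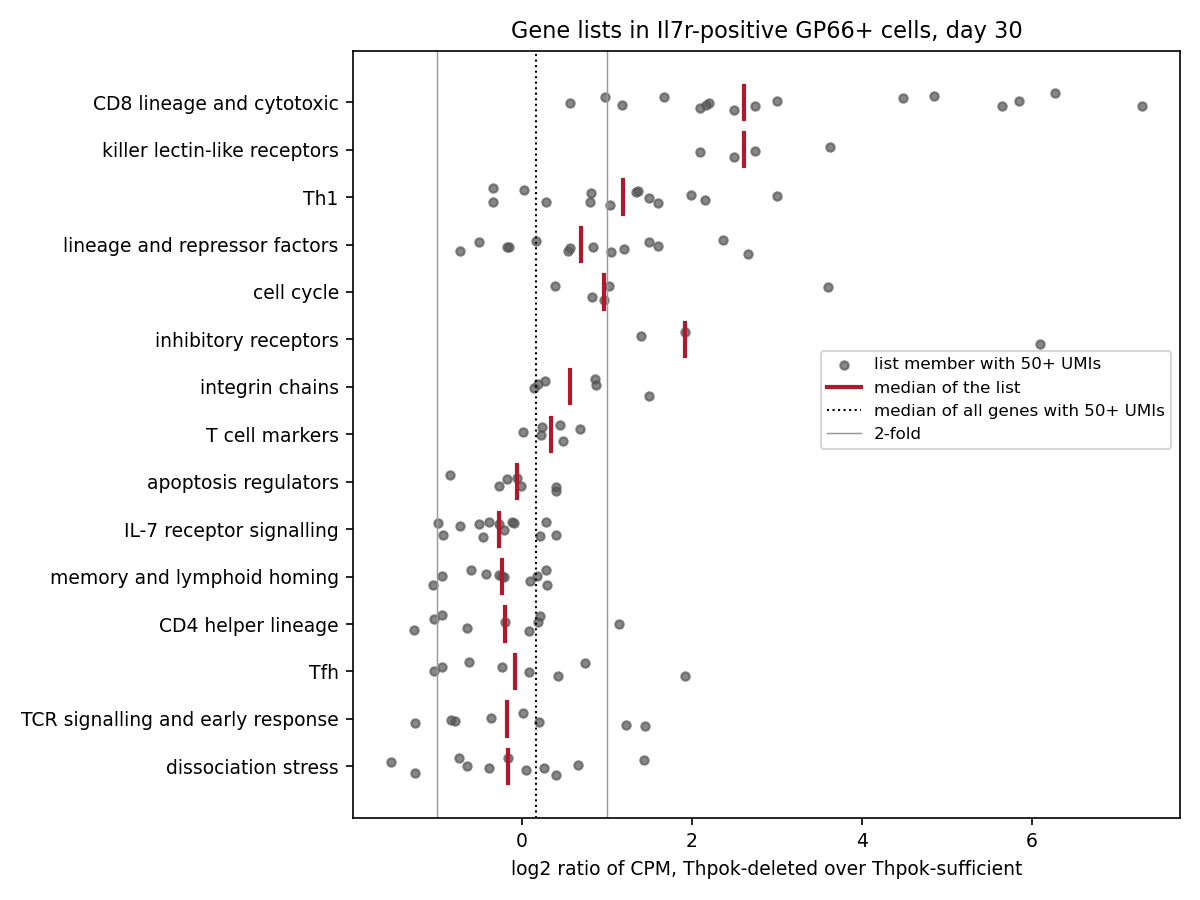
Log2 ratio of CPM, Thpok-deleted over Thpok-sufficient, in Il7r-positive day 30 cells for the members of 15 gene lists that had 50 UMIs (points, shifted vertically at random), with the median of each list (red) and that of all 3001 genes (dotted line, 0.165); grey lines mark 2-fold. The medians of the cytotoxic list and the killer receptors stand at 2.62, and those of the memory list and of IL-7 receptor signalling at -0.24 and -0.26. The lists at 2.62 share Klrc1 and Klrd1, so their medians are not separate.

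The cells with more Il7r UMIs held less Gzma and more Gzmm within the Thpok-deleted library. Gzma had 1399 CPM in Thpok-deleted cells with no Il7r UMI, 257 CPM with 1 and 138 CPM with 2 or more. The Thpok-sufficient cells had 1, 0 and 0 Gzma UMIs in those classes. Gzmm had 32.9, 69.1 and 110.2 CPM in Thpok-deleted cells, and 2, 0 and 0 UMIs in Thpok-sufficient cells. Gzmb had 396, 188 and 165 CPM in Thpok-deleted cells, and 6.69, 10.4 and 2.39 CPM in Thpok-sufficient cells. The granzymes did not order alike across these classes. Nkg7 stayed high in all 3 Thpok-deleted classes, with 2247, 1384 and 1451 CPM, against 292, 267 and 356 CPM in Thpok-sufficient cells. Tcf7 had 89.6, 155 and 142 CPM in Thpok-deleted cells, below the 265, 358 and 270.1 CPM of Thpok-sufficient cells in each class. The classes held 561, 112 and 63 Thpok-deleted and 355, 193 and 177 Thpok-sufficient cells. With 1 library per genotype these orders have no test.

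**Figure D3:**
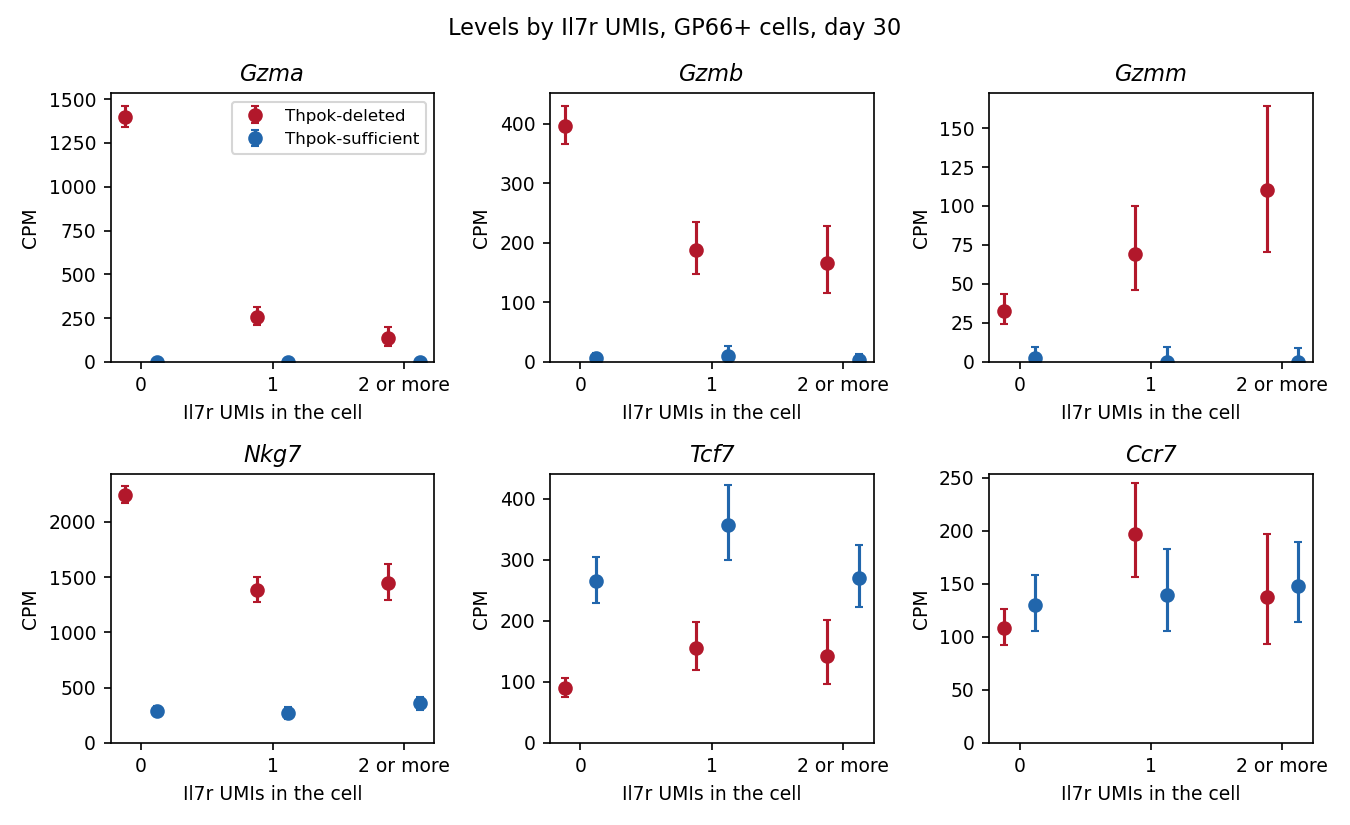
Level of 6 genes in CPM (linear axes from 0) in day 30 GP66+ cells with 0, 1 or 2 and more Il7r UMIs, for the Thpok-deleted (red, left) and the Thpok-sufficient library (blue, right), with exact 95% Poisson intervals. Gzma and Gzmb were highest and Gzmm lowest in Thpok-deleted cells with no Il7r UMI, and Tcf7 was lower in Thpok-deleted cells in all 3 classes.

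Shares of cells at equal depth gave the same directions for the main genes. Each cell was thinned to 1000 UMIs, which left out none of the members. Ccl5 was found in 82.9% of Thpok-deleted members (76.4 to 88.1) and 28.1% of Thpok-sufficient members (23.6 to 33.0), and unthinned in 91.4% and 33.0%. Nkg7 was found in 66.9% (59.4 to 73.8) and 19.7% (15.8 to 24.2), unthinned in 86.3% and 31.4%. Gzma was found in 11.4% of Thpok-deleted members (7.12 to 17.1) and 0 of 370 Thpok-sufficient members, unthinned in 17.7% and 0%. A count of 0 allows up to 0.811% of members with a Gzma UMI (3 of 370); this limits cells with a UMI at this depth, not cells that express the gene. Tcf7 was found in 14.3% of Thpok-deleted members (9.46 to 20.4) and 29.2% of Thpok-sufficient members (24.6 to 34.1), unthinned in 36.6% and 46.2%. Icos was found in 29.7% and 51.1%, unthinned in 62.3% and 70.5%, and Ccr7 in 11.4% and 11.6% (intervals 7.12 to 17.1 and 8.54 to 15.3), unthinned in 18.9% and 18.4%. No cell type known to lack these genes was defined within the sort, so the share of cells that free RNA alone would mark was not measured.

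Coreceptor reads were sparse. Of the Thpok-deleted members 47 had a Cd4 UMI alone, 12 a Cd8a or Cd8b1 UMI alone, 3 both and 113 neither. Of the Thpok-sufficient members 109 had Cd4 alone, 2 Cd8 alone, 4 both and 255 neither. Cd8b1 had 17 UMIs in Thpok-deleted and 5 in Thpok-sufficient cells (4.39-fold, 1.55 to 15.2), and Cd8a 6 and 1. Without the 15 and 6 members that had a Cd8 UMI, 136 genes were 2-fold higher and 35 lower, and 13 of the cytotoxic genes were 2-fold higher.

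The Il7r-positive cells of day 7 came from other libraries and allow the same comparison apart from the day 30 pair. They numbered 104 Thpok-deleted and 87 Thpok-sufficient cells. Of the 175 genes 2-fold higher at day 30, 146 were measured there and 19 of them (13.0%) were 2-fold higher, beside 1.24% of all 2582 genes measured. These 19 were 59.4% of the 32 genes that were 2-fold higher at day 7. Of the 38 lower genes 18 were measured and 8 (44.4%) were 2-fold lower, beside 1.86% of all genes, and these made up 16.7% of the 48 lower at day 7.

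A test with the libraries of both days on each side of genotype is possible. The Il7r-positive cells of the 5 GP66+ libraries, 2 Thpok-deleted against 3 with intact Thpok, were fitted with day as a covariate in edgeR. Of 6156 genes tested, 16 rose (0.260%) and 9 fell (0.146%) at a Benjamini-Hochberg adjusted p of 0.05. The genes that rose were led by cytotoxic and killer receptor genes, and 8 of the 21 cytotoxic genes tested and 3 of the 5 killer receptors were among them. These lists share members, such as Klrd1, so the counts overlap and are not separate results. The fit has 2 residual degrees of freedom and tests genotype over both days, not at day 30 alone.

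Levels given for this fit, here and in the next paragraph, are CPM with TMM factors. They thus differ from the day 30 levels above, which were scaled to the gated totals. Klrd1 had 262 CPM at day 7 and 246 at day 30 in the Thpok-deleted libraries, against 45.4 in the wild type, 51.0 in the day 7 and 51.0 in the day 30 Thpok-sufficient library. Both Thpok-deleted libraries were above all 3 others (log2 fold change 2.37, SE 0.21, edgeR adjusted p = 0.00156). Klrc1 rose as much (2.41, SE 0.22, adjusted p = 0.00156), as did Ccl5, with 7397 CPM at day 7 and 16059 at day 30 in the Thpok-deleted libraries, against 578 in the wild type, 1111 in the day 7 and 2339 in the day 30 Thpok-sufficient library (2.98, SE 0.27, adjusted p = 0.00156). Gzmk, another granzyme, had 171 CPM at day 7 and 56.4 at day 30 in the Thpok-deleted libraries, against 15.7 in the wild type, 10.2 in the day 7 and 1.54 in the day 30 Thpok-sufficient library (3.90, SE 0.35, adjusted p = 0.00156). Eomes had 55.7 CPM at day 7 and 49.6 at day 30 in the Thpok-deleted libraries, against 1.75 in the wild type, 0 in the day 7 and 0 in the day 30 Thpok-sufficient library; it too was higher in both Thpok-deleted libraries (adjusted p = 0.00435). Ly6c2, Nkg7, Ctsw, Klrk1, Itgax, Cst7, Ctla2a, Ctla2b, F2r and Wdr95 were also among the 16 genes that rose. Cst7 encodes an inhibitor of cathepsins and Itgax an integrin chain known from dendritic cells and activated CD8 cells. Gzmb (adjusted p = 0.0737), Cd160 (0.0694), Gzmm (0.0919), Gzma (0.201) and Ccl4 (0.220) did not pass in this edgeR fit, with log2 fold changes of 2.53, 2.70, 3.39, 3.32 and 3.55.

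Among the 9 genes that fell, Tcf7 had 98.1 CPM at day 7 and 161 at day 30 in the Thpok-deleted libraries, against 398 in the wild type, 322 in the day 7 and 388 in the day 30 Thpok-sufficient library. Both Thpok-deleted libraries were below the other 3 (-1.60, SE 0.22, edgeR adjusted p = 0.0172). Cd40lg had 30.3 CPM at day 7 and 142 at day 30 in the Thpok-deleted libraries, against 147 in the wild type, 141 in the day 7 and 398 in the day 30 Thpok-sufficient library, and the day 30 Thpok-deleted level stood beside the day 7 levels of the intact libraries (-1.84, SE 0.24, adjusted p = 0.0128). In Dusp10, too, groups overlapped, with 18.2 CPM at day 7 and 123 at day 30 in the Thpok-deleted libraries, against 54.1 in the wild type, 52.7 in the day 7 and 414 in the day 30 Thpok-sufficient library (-1.67, SE 0.23, adjusted p = 0.0172). Icos fell as well (-1.13, SE 0.18, adjusted p = 0.0406), and Ramp3, Smco4, Nfkbiz, Nsg2 and Cd69 were the others. Cd69 encodes an early activation marker that holds T cells in tissue, and Nfkbiz a nuclear inhibitor of NF-kappa B. None of the 17 IL-7 signalling genes tested passed. Of 6156 genes 267 rose and 280 fell at an unadjusted p under 0.05, and DESeq2 called 14 and 5, with 12 and 4 called by both tools. Calls depended on single libraries: without the day 7 Thpok-sufficient library 0 genes passed, without the wild type library 94 rose and 90 fell, and without the day 7 Thpok-deleted library 57 rose and 13 fell. Without the day 30 Thpok-sufficient library 39 rose and 50 fell, and without the day 30 Thpok-deleted library 39 rose and 49 fell.

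**Figure D4:**
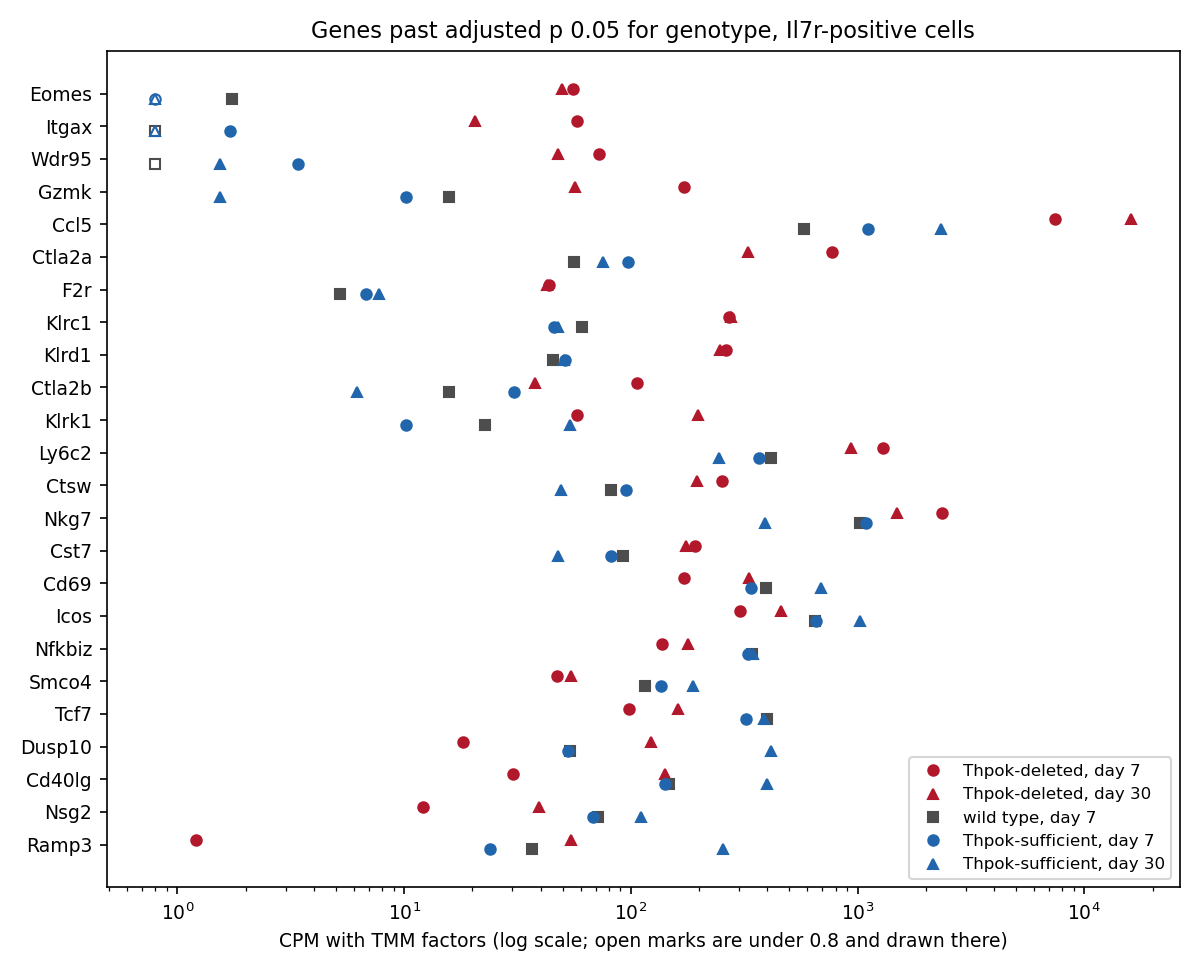
Level in Il7r-positive cells, in CPM with TMM factors on a log scale, of 24 of the 25 genes past an edgeR adjusted p of 0.05 for genotype, in each of 5 libraries: Thpok-deleted (red, upper) and wild type or Thpok-sufficient (grey and blue, lower), with circles and squares for day 7 and triangles for day 30. The upper 15 genes rose and the lower 9 fell in Thpok-deleted cells; open marks stand for levels below the axis range.

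Whether the genotype differences were the same in Il7r-negative cells was tested in the same 5 libraries, each as the sum over its Il7r-positive and over its Il7r-negative cells, with the library as block. The tested quantity is the log2 genotype difference in Il7r-positive cells minus that in Il7r-negative cells. It was above 0 for 23 of 7177 genes (0.320%) and below 0 for 49 (0.683%) by edgeR with Benjamini-Hochberg adjustment, and DESeq2 called 3 and 12, all of them also called by edgeR. For 29 of the 72 genes that edgeR called, DESeq2 gave no adjusted p. Cytotoxic genes made up 11 of the 49, out of 23 tested, and Th1 genes 8, out of 20. The lists share members, such as Ccl5, so these counts overlap. The genotype difference, Thpok-deleted over intact, was thus lower in Il7r-positive than in Il7r-negative cells for part of both lists. This is not a smaller excess for each gene. Ifng, a Th1 gene below 0 here, had a log2 fold change of -0.57 in Il7r-positive cells over both days (edgeR adjusted p = 0.853). Its direction differed by day. With TMM factors it had 81.2 CPM in Thpok-deleted cells at day 7, against 254 in Thpok-sufficient and 398 in wild type cells. At day 30 it had 267 CPM in Thpok-deleted and 120 CPM in Thpok-sufficient cells. Without the day 7 Thpok-deleted library 10 genes were above and 8 below 0, and without the wild type library 11 and 24. Omitting the Thpok-sufficient library of day 7 gave 13 and 29. Leaving out the Thpok-deleted or the Thpok-sufficient library of day 30 gave 15 and 34 or 16 and 34.

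Nkg7 at day 30 had 1408 CPM in Thpok-deleted and 313 CPM in Thpok-sufficient Il7r-positive cells, and 2247 and 292 CPM in Il7r-negative cells. The difference over both days was -0.77 (SE 0.11, edgeR adjusted p = 1.31e-09). Ccl5 had 23565 and 1986 CPM in Il7r-negative cells and a difference of -0.59 (SE 0.08, adjusted p = 1.09e-10). Klrd1 (-1.60, SE 0.25, adjusted p = 1.73e-07) and Id2 (-0.90, SE 0.14, adjusted p = 1.07e-07) were lower in the same sense. At day 30 Il7r-negative cells had 273 CPM of Klrd1 in Thpok-deleted and 30.8 CPM in Thpok-sufficient cells, and 866 and 221 CPM of Id2. Beside the Il7r-positive levels given above, the day 30 differences of Klrd1 and Id2 had the same sign but were smaller than these fitted values. Lgals1, which encodes galectin-1, had a difference of -0.71 (SE 0.09, adjusted p = 7.22e-11) and the granzyme inhibitor Serpinb9 -1.15 (SE 0.19, adjusted p = 1.17e-06). Gzma had the lowest value among the genes that passed, -2.73, but it became 3.02 without the day 7 Thpok-deleted and 0.94 without the day 7 Thpok-sufficient library. At day 30 Gzma had 215 CPM in Il7r-positive and 1399 CPM in Il7r-negative Thpok-deleted cells, and 0 and 1 UMIs in Thpok-sufficient cells, so the fitted value rests on a group near 0.

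Tcf7 was among the genes above 0, with 151 CPM in Thpok-deleted and 312 CPM in Thpok-sufficient Il7r-positive cells, and 89.6 and 265 CPM in Il7r-negative cells. The deficit in Thpok-deleted cells was smaller where Il7r was read (difference 0.94, SE 0.18, edgeR adjusted p = 0.000107). Ltb, a TNF family cytokine that organizes lymphoid tissue, differed by 0.64 (SE 0.13, adjusted p = 0.000148), and Slamf6, a receptor of TCF-1-positive T cells, by 0.62 (SE 0.17, adjusted p = 0.0263). These 3 genes were the members of the memory and homing list that passed, of 15 tested. Rgs10, a regulator of G protein signalling, differed by 1.25 (SE 0.24, adjusted p = 9.99e-05).

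Single cells carried 3 other groups of reads in the Thpok-deleted members. The 4 cells with at least 10 UMIs over 10 cycling genes, such as Stmn1 and Mki67, held 77.6% of the 232 cycling UMIs and had 8600 to 23768 UMIs each. One such cell stood among the Thpok-sufficient members, whose cycling genes had 27 UMIs in all. Without these cells 135 genes were 2-fold higher and 39 lower, an alternative chosen after seeing the data. Of the 344 hemoglobin UMIs in Thpok-deleted members, 83.4% came from 1 cell with 2281 UMIs, against 2 in Thpok-sufficient members; without it 170 genes were higher and 39 lower. Hba-a1, Hba-a2 and Hbb-bs, which are among the 12 genes named for the largest ratios, drew most of their UMIs from that cell. It held 62 of 79, 85 of 92 and 107 of 134 UMIs. Droplets with at most 50 UMIs had 361, 558 and 1048 CPM of these genes in the Thpok-deleted library. Those of the Thpok-sufficient library had 26.4, 28.8 and 7.20 CPM. The part of this RNA in the 3 ratios was not tested. Foxp3, the factor of regulatory T cells, had UMIs in 7 Thpok-deleted and 0 Thpok-sufficient members. Ikzf2, encoding Helios, a factor abundant in regulatory T cells, had 142 UMIs in Thpok-deleted and 29 in Thpok-sufficient members (6.32-fold, 4.21 to 9.77), and 10 Thpok-deleted cells held 108 of its UMIs. The B cell markers had 29 UMIs in Thpok-deleted and 3 in Thpok-sufficient members, with Cd79a at 0 in both. The 8 myeloid markers had 70 and 66 UMIs. The part of these cells and of RNA outside cells in other ratios was not tested. Doublets were not called or removed.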

How the data were processed

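The deposited values are whole UMI counts per gene and barcode, not normalized, made with the 10x v2 kit for RNA 3' ends, per the labels' protocols. The submitters' processing notes name bcl2fastq 2.17, Cell Ranger and mm10. Matrices hold all barcodes. Barcodes with at least 500 genes and at most 10% mt- UMIs were kept as cells. The GP66+ libraries held 725 to 2261 cells and 496788 to 804032 UMIs in Il7r-positive cells. Day 30 levels are CPM of the gated sum, and levels given for the genotype fit are CPM with TMM factors. Intervals are exact Poisson and conditional binomial ones at 95%, from the counts as read. Ratios themselves have 3 UMIs in place of 0. Sums per library were tested with edgeR 4.0.16 (TMM, filterByExpr, quasi-likelihood test) in R 4.3.3; DESeq2 1.42.0 was an alternative. Each SE is the size of the log2 fold change divided by the square root of F. Both steps were run on simulated data with large changes planted, so smaller differences were not covered. The simulated libraries otherwise differed only in depth and random spread, with no effect of day or gate. Gene positions come from GENCODE vM21 (GRCm38, the assembly of mm10). No GP66+ group had a replicate library within a day. p-values of the genotype fit thus measure the spread left after day and genotype, which may be technical in part. It holds the difference of wild type from Thpok-sufficient cells at day 7 and any change of the genotype difference between days. The p-values of the difference between gates rest on how gate differences vary between libraries, since the library is a block. In both fits this spread is estimated with information shared over genes, on 2 residual degrees of freedom. A very low p is thus not a replicate check of 1 gene, and Gzma, lowest in the gate test, turned direction without single libraries. Other alternatives changed the gate, thinning to 1000 UMIs, filters, scaling, UMI minimum and libraries.

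Named genes are Zbtb7b, Il7r, the 12 per direction with the largest day 30 ratio among genes with 50 UMIs, up to 12 per direction past each edgeR test, and list members. T cell receptor, immunoglobulin, sex-linked, mitochondrial and unnamed genes were not named by size. The cells, lists and genes were chosen with earlier results of these data known. In bulk sums, fewer expressing cells and less RNA per cell cannot be told apart. Values of single genes withheld from the text are not reported here, and remain in the counts.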

Additional observations from a re-analysis of the deposited data

Results flagged for a closer look

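The genotype difference in Il7r-positive cells differed from that in Il7r-negative cells for 72 genes by edgeR's interaction test at an adjusted p of 0.05. Among the 12 per direction with the largest log2 difference, leaving out histone and Rik genes, it was below 0 for Gzma (-2.73), Ccl3 (-1.72), Klrd1 (-1.60), Klrk1 (-1.45), Cenpe (-1.42), Ccr2 (-1.37), Fasl (-1.23), Cd7 (-1.20), Ccdc34 (-1.16), Serpinb9 (-1.15), Ifng (-1.11) and Ube2c (-0.97). It was above 0 for Cd83 (2.70), Cd74 (2.55), Fam43a (2.49), Pacsin1 (2.33), Cxcr5 (1.98), Ikzf2 (1.32), Rgs10 (1.25), Tbc1d4 (1.20), Ctsz (1.15), Irf2bp2 (1.12), Trpv2 (1.11) and Rsbn1 (0.996). For the 7 other genes described with this test, it was -0.897 for Id2, -0.766 for Nkg7, -0.714 for Lgals1, -0.59 for Ccl5, 0.939 for Tcf7, 0.638 for Ltb and 0.624 for Slamf6. The remaining 41 genes lay between -1.90 and 0.99. Of the 31 genes given by name, DESeq2 called 9, which are Klrd1, Serpinb9, Rgs10, Id2, Nkg7, Lgals1, Ccl5, Tcf7 and Ltb. Gzma and Ccl3 turned direction without the day 7 Thpok-deleted library, Gzma also without the day 7 Thpok-sufficient and Ccl3 without the wild type library, and Cd74 and Fam43a without either day 30 library.

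Some genes moved in opposite directions in 2 settings, with counting intervals of both ratios on either side of 1; these differences were not tested. Cd83 had a log2 ratio of 4.01 in Il7r-positive day 30 and -3.25 in Il7r-positive day 7 cells, and Ikzf2 2.66 and -2.79. Nrp1 had 0.64 and -1.07, and Hspa1a, a heat shock gene with the near copy Hspa1b, 1.44 and -3.76. Izumo1r had 0.75 in Il7r-positive day 30 cells, -0.58 in Il7r-negative day 30 cells and -5.75 in Il7r-positive day 7 cells. Ifi27l2a had 0.26, -0.23 and -0.60 in the same order, and with DESeq2 size factors its Il7r-positive day 30 value would stand at -0.01. The day 7 values of Izumo1r, Cd83 and Hspa1a rest on 2, 2 and 1 UMIs in Thpok-deleted and 79, 14 and 10 UMIs in Thpok-sufficient cells.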

How the results depend on the processing

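For the 2-fold counts at day 30, beside 175 higher and 38 lower, the alternatives gave as higher and lower genes 53 and 20 with 2 or more Il7r UMIs, 77 and 36 with the gate set after thinning, and 30 and 16 with thinned sums too. TMM factors gave 87 and 89, DESeq2 size factors 80 and 102, cells with at least 1000 genes (134 and 51 cells) 101 and 9, and leaving out the 5% of cells with the most UMIs 114 and 33. A minimum of 20 UMIs gave 514 and 147, and one of 100 UMIs 70 and 17. Equal weight per cell, at most 5% mt- UMIs, leaving out Cd8-positive cells, cycling cells or the hemoglobin cell moved neither count by over 1.5 times.

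For genotype over both days, 16 rose and 9 fell; DESeq2 called 5 that fell, the fit with no filter 1 and the gate at 2 or more Il7r UMIs 5, and the fit without the day term 0 and 0. Leaving out single libraries gave 0 to 94 that rose and 0 to 90 that fell. For the difference between gates, 23 above and 49 below 0, DESeq2 called 3 and 12 and the fit with no filter 14 above; leaving out libraries gave 10 to 16 and 8 to 34. The causes were not tested. Each fit with a library left out keeps 1 residual degree of freedom.

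Of single values, Itgav (-1.14) and Stmn1 (-0.56) turned direction with thinned sums and Hba-a2 (-0.48) with at least 1000 genes per cell. Of the differences between gates, leaving out libraries gave -5.99 to 4.34 for Cd74, -4.51 to 2.97 for Fam43a, -4.09 to 3.02 for Gzma, -3.09 to 0.81 for Ccl3 and -1.37 to 1.15 for 1500009L16Rik. Of named day 30 ratios of at least 2-fold, 683 of 686 values under alternatives kept their direction, and of those under 2-fold 445 of 462. For genotype over both days 204 of 204 values of named genes did. These genes were chosen by the size of their difference in the same data, so kept directions are a description and no support. The counts are of direction only, not of values past a threshold. No paired analysis was possible because each GP66+ group compared has 1 library, so genotypes share no pair of replicate numbers; the gates were compared within libraries, with the library as block. With 175 and 370 cells, genes under 50 UMIs were left out of the 2-fold counts, and those named have wide counting intervals.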
